A study of Homo sapiens with 8 samples.

Results

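The genes of N-glycosylation, from the sugar donors and the dolichol carrier to the first Golgi steps, were followed in HT1080 cells, a human fibrosarcoma line, under 2-deoxyglucose (2DG) stress. The set was a list of 45 genes, drawn up by function, though with earlier results of these data known. Its members were the probe sets that the platform annotation assigns to those genes. Of the 45, 42 had a probe set of their own and 40 were expressed, out of 8428 expressed genes on the arrays. The 8 cultures formed 4 conditions with 10 mM 2DG and 4 without it. Within each of these, a culture received 10 µM compound C (CC), 10 µM versipelostatin (VST), 100 µM phenformin (Phen) or no compound. The groups were therefore 2DG+CC, 2DG+VST, 2DG+Phen, 2DG, CC, VST, Phen and control, each of 1 culture harvested after 18 h and hybridized to 1 Affymetrix U133 Plus 2.0 array. All 8 cultures grew in glucose-containing RPMI-1640 medium, and any compound was given immediately before 2DG. Compound C is a kinase inhibitor known for blocking AMPK and BMP receptors, versipelostatin is a macrocyclic natural product, and phenformin is an antidiabetic biguanide that inhibits mitochondrial respiration. HT1080 is a single established tumor line, so the values describe that line only.

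N-glycans are built on the lipid dolichol in the membrane of the endoplasmic reticulum (ER) and are then moved as a block to asparagines of newly made proteins by the oligosaccharyltransferase. The hexosamine pathway supplies UDP-N-acetylglucosamine, the mannose pathway supplies GDP-mannose, and glucosidases and mannosidases trim the glycan once it is attached. 2DG resembles both glucose and mannose, so it blocks glycolysis and is also taken into the mannose steps of glycan synthesis, and several glycosylation genes are known targets of the unfolded protein response (UPR).

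Genes counted as expressed had a log2 value of 6 or more on some array, and each was read from its brightest probe set. PGM3 and PMM2 had no probe set in the annotation used, and the 3 probe sets of GMPPB were shared with a neighbouring gene and were not used. DOLK, the dolichol kinase, stayed below the limit at log2 values of 3.85 to 5.88, and ALG12, a lumenal mannosyltransferase, at 4.65 to 4.95. With 1 array per condition no difference has a replicate check, no p-value is given, and a difference of at least 2-fold was set beside the share of all expressed genes past the same limit. Each array read the pooled RNA of a culture, so a change in some cells and a smaller change in all cells cannot be told apart. All 7 mesenchymal markers, VIM and FN1 among them, reached the limit on all 8 arrays (6.66 to 13.6 on the log2 scale), and the 4 epithelial and 2 leukocyte markers measured reached it on none (1.83 to 3.48). The probe sets for the poly-A spike-in controls, which do not come from the cells, read 1.22, 0.85 and 0.67 log2 units above control on the 2DG+CC, 2DG+VST and 2DG+Phen arrays, and 0.35 above control on the 2DG array. The hybridization control probe sets also read above control on these arrays. Their log2 differences were 0.75 in 2DG+CC, 0.53 in 2DG+VST, 0.58 in 2DG+Phen and 0.21 in 2DG. The part of the poly-A and hybridization controls in the differences below was not tested. Values rescaled on the poly-A controls are given for some results only. On that scaling, any positive log2 difference between 2DG and control smaller than 0.35 turns negative.

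In 2DG, the listed oligosaccharyltransferase subunits had the highest median difference from control of the 6 role groups, and most members lay above control. Of the 40 members, 31 lay above their control level in the deposited values, against 4349 of the 8428 expressed genes. These counts were not redone on the poly-A scaling. The median log2 difference between 2DG and control was 0.30 for the members and 0.01 for all expressed genes, and it was -0.06 for the members and -0.34 for all expressed genes after scaling on the poly-A controls. The members' median exceeded that of all genes by 0.28 under both scalings. Past 2-fold above control were GMPPA and STT3A (2 of 40, 5%), and no member was 2-fold lower. Among all expressed genes, 3.06% lay 2-fold above control and 1.9% lay 2-fold below, so the 2-fold counts of the members lay near the background.

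**Figure D1:**
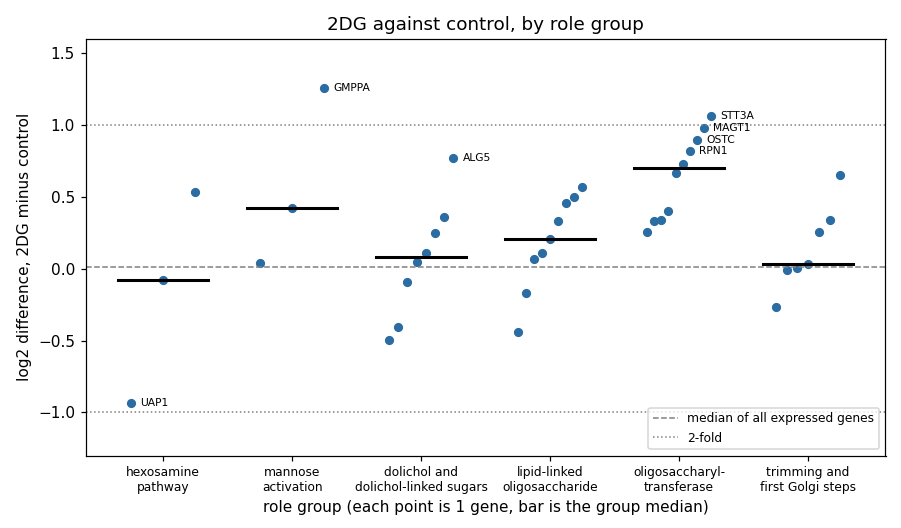
The log2 difference between 2DG and control (y axis) for the 40 measured members, arranged by role group (x axis), with 1 point per gene, a bar at each group median, a dashed line at the median of all expressed genes and dotted lines at 2-fold. The 10 listed oligosaccharyltransferase subunits all lie above 0, between 0.26 and 1.07, and UAP1 of the hexosamine pathway is the lowest point at -0.93.

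The oligosaccharyltransferase is the ER complex that attaches the finished glycan to protein, and the 10 subunits on the list were all higher in 2DG than in control, with a median log2 difference of 0.70. OST4 and TMEM258, small subunits that were measured but not on the list, differed by -0.17 and -0.01. STT3A, the catalytic subunit that acts while the chain is still entering the ER, had log2 values of 9.27 in 2DG+CC, 8.94 in 2DG+VST, 8.87 in 2DG+Phen and 10.13 in 2DG, against 8.99 in CC, 9.0 in VST, 9.07 in Phen and 9.06 in control. Its 2DG value was 2.09-fold that of control, and the other 7 arrays lay within 8.87 to 9.27. MAGT1, an oxidoreductase subunit of the STT3B form of the complex, had log2 values of 9.48 in 2DG+CC, 9.49 in 2DG+VST, 9.21 in 2DG+Phen and 10.49 in 2DG, against 9.24 in CC, 9.32 in VST, 9.48 in Phen and 9.51 in control. Its 2DG value was 1.97-fold that of control and stood 0.98 log2 units above the next-highest array. The 3 probe sets of MAGT1 gave log2 differences of 0.96 to 1.04 between 2DG and control.

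The other listed subunits ranged more widely. OSTC, a small subunit of the STT3A form, was higher in 2DG by 0.89 on the log2 scale. RPN1, a ribophorin, differed by 0.82, DDOST by 0.73 and STT3B, the catalytic subunit that acts after synthesis, by 0.67. DAD1 differed by 0.40, TUSC3 by 0.34, KRTCAP2 by 0.33 and RPN2, the other ribophorin, by 0.26. After scaling on the poly-A controls the median of the 10 subunits was 0.35, and TUSC3, KRTCAP2 and RPN2 then lay below control. For 9 of the 10 subunits, all but KRTCAP2, the 2DG array held the highest of the 8 values, as it did for 18 of the 40 members (45%) and for 12.9% of all expressed genes. This count was chosen after the values had been seen, and 7 of the 10 subunits met it after scaling on the poly-A controls.

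**Figure D2:**
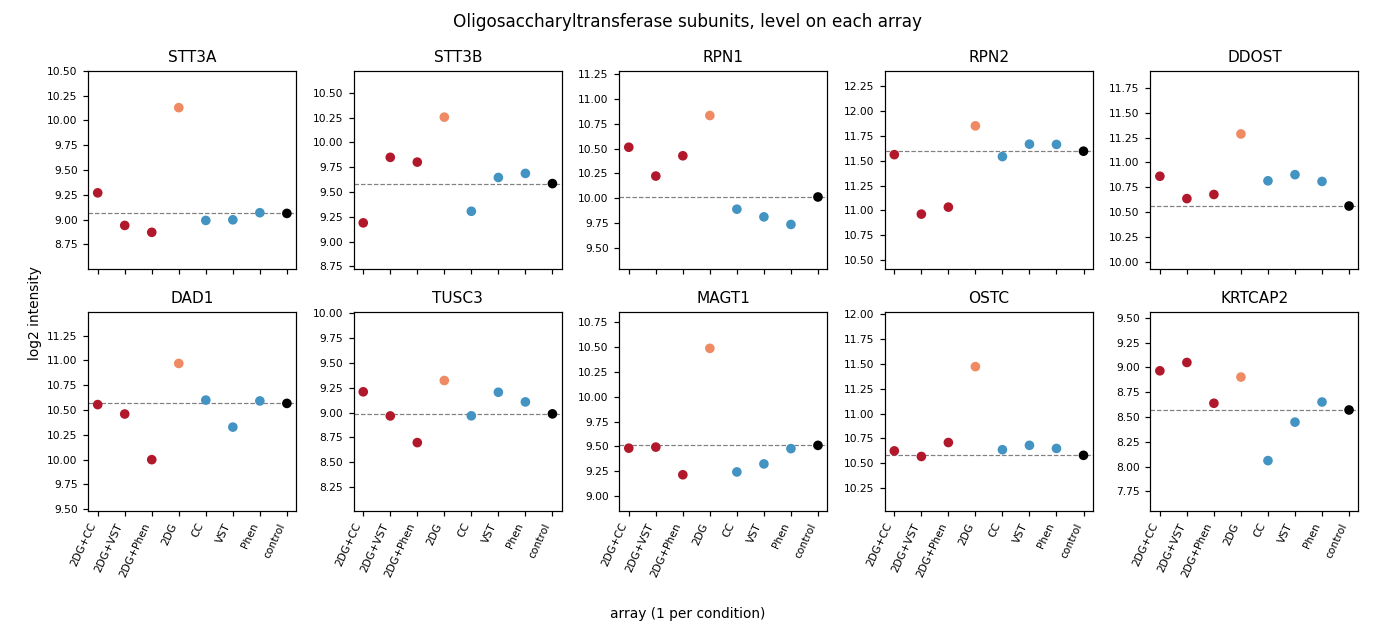
The log2 values of the 10 listed oligosaccharyltransferase subunits (one panel each) on the 8 arrays, with dark red for 2DG with a compound, orange for 2DG, blue for a compound alone, black for control and a dashed line at the control level. The orange point is the highest in 9 of 10 panels, and in the STT3A and MAGT1 panels it stands 0.86 and 0.98 log2 units above the next array.

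Promoter windows of 300 bases, 250 before to 50 after the start (RefSeq, GRCh38.p14), were found for 40 of the 45 members. STT3B, RPN1, TUSC3, MOGS and MAN1A2 had no window in the table. Both strands were searched for letters bound by the UPR transcription factors ATF6 and XBP1. The ER stress response element, CCAAT and CCACG separated by 9 bases, stood in 0.0769% of 35116 windows and in 1 member's window, that of ALG12. Its second form, ATTGG and CCACG separated by 1 base, stood in 0.0541% of all windows and in none of the members'. The UPR element TGACGTGG stood in 0.729% of all windows and in the window of DHDDS. Its core ACGTGG, which lies within TGACGTGG, stood in 9.72% of all windows, in 17 of the 61 windows of members and in 15 of the 40 matched members. The windows shown are those of GMPPA and STT3A, the members past 2-fold in 2DG, of OSTC, the 1 oligosaccharyltransferase subunit of those matched with the core, and of ALG12 and DHDDS, which hold the longer motifs. Capitals mark the motif letters. The windows of STT3A (chr11:125592602-125592901, plus strand) and GMPPA (chr2:219498641-219498940, plus strand) held none of the 4 motifs:
STT3A: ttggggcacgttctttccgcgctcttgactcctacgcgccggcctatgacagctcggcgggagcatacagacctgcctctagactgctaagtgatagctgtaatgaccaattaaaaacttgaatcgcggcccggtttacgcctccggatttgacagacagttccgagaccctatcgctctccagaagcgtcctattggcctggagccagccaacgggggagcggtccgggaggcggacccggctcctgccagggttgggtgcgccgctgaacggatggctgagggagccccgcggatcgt
GMPPA: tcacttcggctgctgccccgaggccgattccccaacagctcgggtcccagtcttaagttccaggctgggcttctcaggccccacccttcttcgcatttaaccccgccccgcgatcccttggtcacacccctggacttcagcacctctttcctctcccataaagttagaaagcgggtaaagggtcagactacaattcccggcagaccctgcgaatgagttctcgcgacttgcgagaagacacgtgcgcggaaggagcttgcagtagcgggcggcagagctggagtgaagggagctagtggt
The window of OSTC (chr4:108650349-108650648, plus strand) held the core with its first base at -245 from the start:
OSTC: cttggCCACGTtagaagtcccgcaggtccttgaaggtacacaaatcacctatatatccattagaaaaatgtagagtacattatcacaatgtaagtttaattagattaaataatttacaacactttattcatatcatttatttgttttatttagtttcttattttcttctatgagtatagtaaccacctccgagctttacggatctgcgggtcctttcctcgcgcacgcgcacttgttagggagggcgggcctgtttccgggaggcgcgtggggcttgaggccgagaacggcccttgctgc
The window of ALG12 (chr22:49918389-49918688, minus strand) held the ER stress response element from -134, and that of DHDDS (chr1:26432071-26432370, plus strand) held the core from -203 and the UPR element from -7:
ALG12: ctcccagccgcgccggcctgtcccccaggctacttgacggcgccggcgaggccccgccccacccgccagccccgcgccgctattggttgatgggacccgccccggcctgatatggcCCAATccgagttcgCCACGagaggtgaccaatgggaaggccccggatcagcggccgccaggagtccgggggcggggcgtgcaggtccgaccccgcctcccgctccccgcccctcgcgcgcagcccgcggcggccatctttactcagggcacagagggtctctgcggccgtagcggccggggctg
DHDDS: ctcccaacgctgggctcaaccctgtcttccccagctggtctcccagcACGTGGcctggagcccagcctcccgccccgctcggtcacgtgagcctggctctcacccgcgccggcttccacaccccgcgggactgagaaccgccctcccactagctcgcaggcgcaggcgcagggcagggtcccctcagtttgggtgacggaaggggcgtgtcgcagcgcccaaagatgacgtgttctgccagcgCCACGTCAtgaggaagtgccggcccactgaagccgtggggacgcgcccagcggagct
These matches are descriptions of the letters in the windows. DHDDS, which holds the UPR element, differed by -0.10 on the log2 scale between 2DG and control, and STT3A, with no match, differed by 1.07.

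Among the genes that activate mannose, GMPPA, the regulatory partner of the enzyme that makes GDP-mannose, had log2 values of 6.18 in 2DG+CC, 5.91 in 2DG+VST, 5.66 in 2DG+Phen and 7.15 in 2DG, against 5.91 in CC, 5.80 in VST, 6.05 in Phen and 5.89 in control. Its level in 2DG was 2.39-fold that in control, and the 2DG array stood 0.96 log2 units above the next. Its values in control, CC, VST, 2DG+VST and 2DG+Phen lay below the limit of 6 for expression. MPI, which links mannose 6-phosphate to glycolysis, differed by 0.04 and the phosphomannomutase PMM1 by 0.42. In the hexosamine pathway the 3 measured genes went different ways. UAP1, which makes UDP-N-acetylglucosamine, had log2 values of 11.13 in 2DG+CC, 10.62 in 2DG+VST, 11.97 in 2DG+Phen and 10.18 in 2DG, against 9.93 in CC, 11.05 in VST, 10.44 in Phen and 11.11 in control. The log2 difference between 2DG and control was -0.93, just short of 2-fold, and its highest value was in 2DG+Phen. GFPT1, the committed enzyme of the pathway, differed by 0.53 between 2DG and control, and GNPNAT1, which acetylates glucosamine 6-phosphate, by -0.08.

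Among the genes for dolichol and its sugar-loaded forms, ALG5, which makes dolichol-phosphate-glucose, had log2 values of 10.20 in 2DG+CC, 9.87 in 2DG+VST, 9.82 in 2DG+Phen and 11.25 in 2DG, against 10.84 in CC, 10.08 in VST, 9.50 in Phen and 10.48 in control. Its difference between 2DG and control was 0.77, the highest of the 8 measured genes of this group, whose median was 0.08. The 3 subunits of dolichol-phosphate-mannose synthase differed by -0.41 (DPM1), 0.25 (DPM2) and 0.11 (DPM3). The cis-prenyltransferase, which makes the dolichol chain, had NUS1 at 0.36 and DHDDS at -0.10, and DOLPP1, which recycles the carrier, was at -0.50. The dimmer probe set of NUS1 went the other way, at -0.16. Of the 9 measured genes that assemble the oligosaccharide on dolichol, 7 were above control, with a median of 0.20. ALG2, which adds the second and the third mannose, had log2 values of 7.18 in 2DG+CC, 5.83 in 2DG+VST, 6.43 in 2DG+Phen and 8.39 in 2DG, against 7.82 in CC, 7.33 in VST, 7.16 in Phen and 7.82 in control. DPAGT1, the first step and the target of tunicamycin, differed by 0.50 between 2DG and control. ALG6, which adds the first glucose, differed by -0.44. The 7 genes of trimming and the first Golgi steps had a median of 0.04 and ran from -0.27 for MGAT2 to 0.65 for MOGS.

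In medium without 2DG, few members passed 2-fold with a compound. The 3 comparisons share the control array with each other and with that of 2DG. With CC, UAP1 (-1.18 on the log2 scale against control) and ALG8 (-1.15), which adds the second glucose, were at least 2-fold lower and no member was higher, against backgrounds of 2.71% lower and 3.88% higher among all expressed genes. With VST, GFPT1 was 2.42-fold higher and no member was 2-fold lower, against 2.46% higher and 2.48% lower. With Phen no member passed 2-fold, against 2.66% higher and 2.17% lower, and ALG5 came closest at -0.99. The members' medians were -0.06, -0.12 and -0.09 for CC, VST and Phen, and those of all expressed genes were 0.04, -0.02 and -0.03. The 10 listed oligosaccharyltransferase subunits stayed within -0.51 to 0.32 of control under each compound alone, and OST4 was at -0.55 with CC. All 9 measured assembly genes were below control with Phen, as were 4427 of the 8428 expressed genes. The log2 differences of the 9 ran from -0.66 to -0.19, with a median of -0.41.

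With a compound added to 2DG, most members lay below their 2DG level, 31 of 40 with CC, 30 with VST and 32 with Phen, against 5085, 5093 and 5397 of the 8428 expressed genes. The members that lay 2-fold or more below their 2DG level numbered 10 of 40 with CC (25%, against 25.4% of all expressed genes), 9 with VST (22.5%, against 20%) and 12 with Phen (30%, against 21.8%). These counts moved with the scaling of the arrays. On the poly-A controls they were 29 with CC (54.3% of all expressed genes), 20 with VST (35.4%) and 16 with Phen (31.4%), and with each array centred they were 4 (20.9%), 6 (14.8%) and 8 (15.2%). No member lay 2-fold above its 2DG level with CC or VST, against 8.33% and 4.09% of all expressed genes, and 1 member, UAP1, did with Phen (2.5%, against 4.84%). The median log2 difference from 2DG alone was -0.37 with CC, -0.49 with VST and -0.58 with Phen for the members, and -0.23, -0.18 and -0.26 for all expressed genes. These 3 comparisons share the 2DG array with each other and with the comparison of 2DG and control, so a value that is high on that array raises the 2DG difference and lowers the other 3. On the poly-A controls these 3 arrays read 0.87, 0.50 and 0.32 log2 units above the 2DG array.

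In the deposited values, the 10 listed oligosaccharyltransferase subunits were on balance near their control levels when a compound was present, with median log2 differences from control of 0.13 in 2DG+CC, -0.01 in 2DG+VST and -0.06 in 2DG+Phen. After scaling on the poly-A controls, all 10 subunits lay below control on these 3 arrays, with medians of -1.09, -0.86 and -0.73. That scaling shifts every gene of an array alike. On it, the medians of all expressed genes were -0.34 in 2DG against control, and -1.10, -0.68 and -0.58 from 2DG alone with CC, VST and Phen. The all-gene medians from control were not computed for these 3 arrays, so the scaled values do not place the subunits below other genes. In the deposited values, the subunits' median log2 difference from 2DG alone was -0.42 with CC, -0.63 with VST and -0.70 with Phen. With CC, VST and Phen, 9, 9 and 10 of the 10 subunits lay below their 2DG level. STT3A differed from control by 0.21 in 2DG+CC, by -0.12 in 2DG+VST and by -0.19 in 2DG+Phen. MAGT1 differed from control by -0.03, -0.02 and -0.30 in 2DG+CC, 2DG+VST and 2DG+Phen, and OSTC by 0.04, -0.01 and 0.13. RPN1 lay closest to its 2DG level, at -0.32, -0.61 and -0.41 from 2DG alone with CC, VST and Phen, among the 5 subunits that differed most in 2DG. STT3B was past 2-fold with CC (-1.07) and not with VST (-0.41) or Phen (-0.45). KRTCAP2 was slightly above its 2DG level with CC and VST, by 0.06 and 0.15, and below it with Phen (-0.26).

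MOGS, MGAT2 and MAN1A2, of the trimming and first Golgi steps, lay 2-fold or more below their 2DG level with each compound. MOGS, the glucosidase I that removes the outermost glucose, had log2 values of 4.35 in 2DG+CC, 5.36 in 2DG+VST, 4.60 in 2DG+Phen and 7.58 in 2DG, against 6.47 in CC, 7.22 in VST, 6.72 in Phen and 6.93 in control. It was 9.38-fold lower in 2DG+CC, 4.66-fold lower in 2DG+VST and 7.92-fold lower in 2DG+Phen than in 2DG, and those 3 arrays also lay below control, at log2 differences of -2.58, -1.57 and -2.33. All 3 values are below the limit of 6 for expression, and how much of such dim signals is background was not measured, so these folds are those of the deposited values only. MGAT2, the Golgi N-acetylglucosaminyltransferase II that starts the second branch of complex glycans, had log2 values of 6.10 in 2DG+CC, 7.81 in 2DG+VST, 7.26 in 2DG+Phen and 9.21 in 2DG, against 8.71 in CC, 9.09 in VST, 9.14 in Phen and 9.47 in control. It was 8.62-fold lower in 2DG+CC than in 2DG, 2.63-fold lower in 2DG+VST and 3.85-fold lower in 2DG+Phen. Its dimmer probe set gave smaller log2 differences from 2DG, -2.20, -0.79 and -1.16 with CC, VST and Phen. MAN1A2, a Golgi mannosidase, had log2 values of 6.94 in 2DG+CC, 7.36 in 2DG+VST, 7.22 in 2DG+Phen and 8.50 in 2DG, against 8.40 in CC, 8.33 in VST, 8.45 in Phen and 8.24 in control. Its dimmer probe set differed by 1.68 between 2DG and control, where the brighter differed by 0.26, and by -0.91, -1.99 and -1.92 from 2DG with CC, VST and Phen. On the brightest probe set of each of these 3 genes, the arrays with 2DG and a compound did not overlap the other 5. The same held for ALG6, GFPT1 and DHDDS, members of other role groups, so the separation was not particular to this group. The 3 genes were named because they were low on those arrays, and the share of all expressed genes that separate in this way was not counted. In the same group the glucosidase II subunits GANAB and PRKCSH stayed within -0.01 to 0.44 of their 2DG level under all 3 compounds.

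With ALG2 and ALG5, these 3 genes made 5 of 40 members (12.5%) at least 2-fold lower than 2DG with all 3 compounds, against 849 of the 8428 expressed genes (10.1%). ALG2 was 2.30-fold lower with CC, 5.89-fold lower with VST and 3.87-fold lower with Phen than in 2DG, and ALG5 was 2.08-fold, 2.61-fold and 2.70-fold lower. The ALG2 value in 2DG+VST, 5.83, lay below the limit of 6 for expression. Other members passed 2-fold with some compounds only. ALG14, the membrane anchor of the second N-acetylglucosamine transferase, differed from 2DG by -0.47 with CC, -1.71 with VST and -1.65 with Phen, and its catalytic partner ALG13 by 0.28, 0.43 and 0.77. The dimmest of the 3 ALG13 probe sets went the other way, at -1.18, -1.08 and -0.94. GMPPA was at -0.96, -1.24 and -1.49, and ALG6 at -1.03, -0.94 and -1.46. STT3A, at -1.19 with VST and -1.26 with Phen, and MAGT1, at -1.01 with CC and -1.27 with Phen, each passed 2-fold with a pair of the compounds. MAN1A1, a Golgi mannosidase, was at -2.12 with CC, -0.55 with VST and -1.08 with Phen. GNPNAT1 passed with CC (-1.17), GFPT1 with VST (-1.12) and DPAGT1 with Phen (-1.05). The 4 expressed probe sets of GFPT1 gave -2.65 to -0.43 with Phen, so some passed 2-fold there, and -0.78 to -0.32 with CC. UAP1 was the member past 2-fold in the other direction, 3.45-fold higher in 2DG+Phen than in 2DG, with log2 differences of 0.95 with CC and 0.44 with VST. No test compared the compounds with each other.

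**Figure D3:**
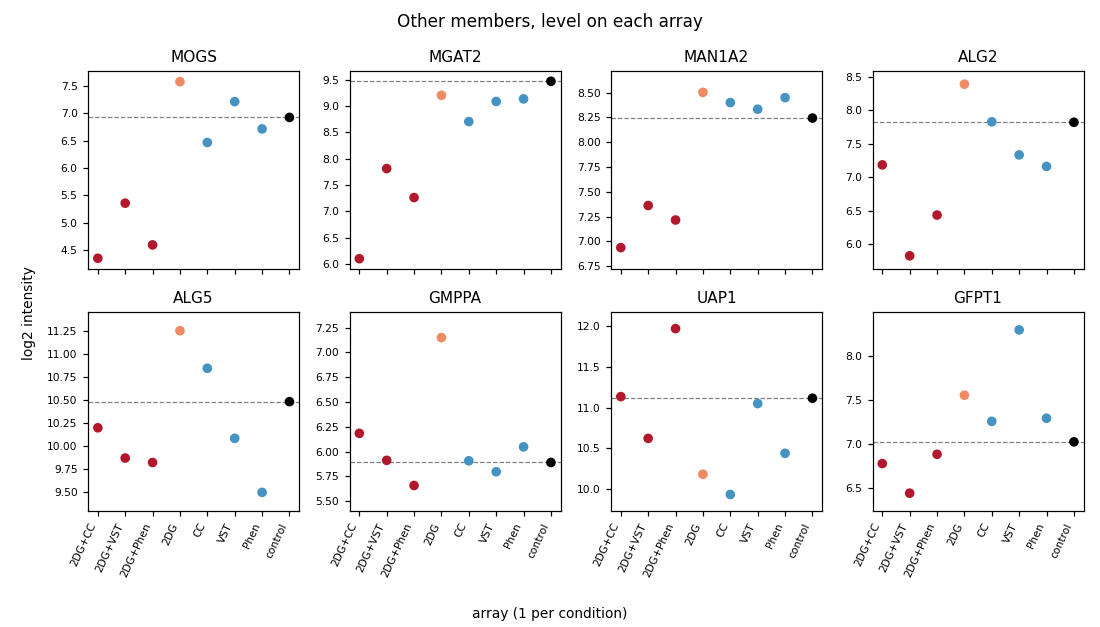
The log2 values of 8 further members (one panel each, with its own y axis) on the 8 arrays, with dark red for 2DG with a compound, orange for 2DG, blue for a compound alone, black for control and a dashed line at the control level. In the MOGS, MGAT2, MAN1A2 and GFPT1 panels the 3 dark red points lie below the other 5, and in the GMPPA panel the orange point stands alone at 7.15.

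The comparison of 2DG with a compound and that compound alone uses neither the 2DG nor the control array, though each shares an array with comparisons above. Between 2DG+CC and CC the members' median log2 difference was 0.01, against -0.24 for all expressed genes, between 2DG+VST and VST -0.06, against -0.14, and between 2DG+Phen and Phen -0.25, against -0.23. After scaling on the poly-A controls the members' medians were -1.11, -0.86 and -0.64, and with each array centred that of 2DG+VST and VST was 0.13. With CC, 2 members were at least 2-fold higher (5%, against 8.67% of all expressed genes) and 7 lower (17.5%, against 26.4%). With VST, no member was 2-fold higher (against 3.74%) and 4 were lower (10%, against 16.6%). With Phen, 2 were higher (5%, against 5.59%) and 6 lower (15%, against 18.9%). MOGS was at -2.12 with CC, -1.86 with VST and -2.12 with Phen on the log2 scale. MGAT2 was at -2.61, -1.28 and -1.88, and MAN1A2 at -1.46, -0.97 and -1.23. The dimmer probe set of MAN1A2 went the other way with CC, at 0.92, and gave -0.87 with VST and -0.58 with Phen. That of MGAT2 gave -1.69, -0.91 and -1.24. UAP1 was higher by 1.2 with CC and 1.53 with Phen, and was at -0.43 with VST. DPM3, which anchors the mannose synthase, was the other member higher with CC (1.01), and ALG13 the other higher with Phen (1.16), where its dimmest probe set gave -1.43. DHDDS (-1.75), DOLPP1 (-1.07), ALG6 (-1.02) and MAN1A1 (-1.77) completed the lower members with CC, GFPT1 (-1.86) and ALG2 (-1.50) those with VST, and ALG14 (-1.10), ALG6 (-1.34) and MAN1A1 (-1.77) those with Phen. None of the 10 listed oligosaccharyltransferase subunits passed 2-fold in these comparisons, and their medians were 0.14 with CC, 0.04 with VST and -0.16 with Phen, beside 0.70 for 2DG and control. RPN1 was the one of these with a positive difference above 0.4 in all of these, at 0.62, 0.41 and 0.69. These subunit values are as deposited, and values scaled on the poly-A controls were not computed for them.

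**Figure D4:**
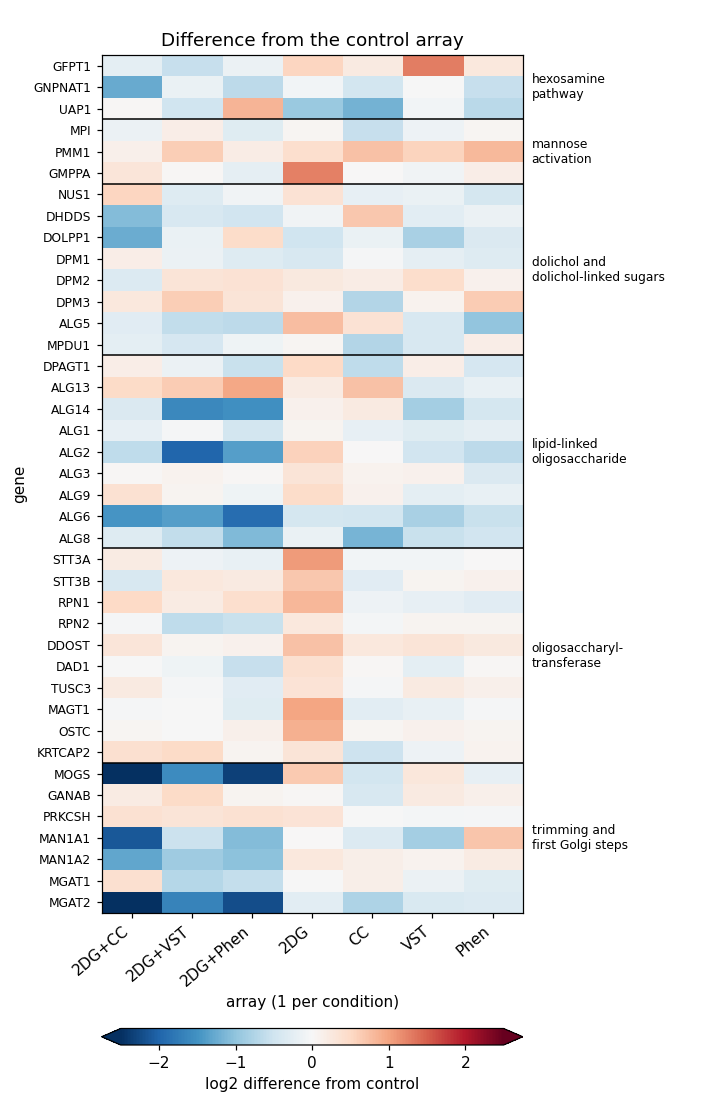
Heat map of the log2 difference from control for the 40 measured members (rows, ordered by role group) on the other 7 arrays (columns), with the color scale clipped at 2.5 log2 units on either side. The oligosaccharyltransferase rows are above control in the 2DG column, by 0.26 to 1.07, and the MOGS and MGAT2 rows are below control in the 3 columns of 2DG with a compound, down to -3.37 for MGAT2 in 2DG+CC. The lowest row of the 2DG+VST column is ALG2, at -1.99.

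Of 37 further genes of the pathway, 25 were expressed, and their median log2 difference between 2DG and control was 0.36. PDIA3, the disulfide isomerase that works with calnexin and calreticulin on glycoproteins, was the 1 gene past 2-fold, at 1.64, and none was 2-fold lower. The 6 genes of the calnexin cycle had a median of 0.69, and 5 of the 6 were highest on the 2DG array, as were 12.9% of all expressed genes. That median was close to the 0.70 of the listed oligosaccharyltransferase subunits. With CC alone, CALR, the lectin chaperone calreticulin, was 2-fold lower (-1.06), and no other of the 25 passed 2-fold with a compound alone.

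Relative to 2DG, 8 of the 25 were at least 2-fold lower with CC (25.4% of all expressed genes), 5 with VST (20%) and 7 with Phen (21.8%), and their medians were -0.65, -0.65 and -0.74. NAGK, which salvages N-acetylglucosamine, was lower with all 3, at -2.02, -2.18 and -2.10. OGT, which puts single N-acetylglucosamines on nuclear and cytosolic proteins, was higher with CC (1.45) and lower with VST (-2.06) and Phen (-2.11), and its partner OGA, which removes them, was at -1.85 with VST and -2.97 with Phen. PIGM and PIGV, mannosyltransferases of the GPI anchor that use dolichol-phosphate-mannose, were at -2.56 and -2.07 with CC and at -1.53 and -1.47 with Phen. Of the Golgi enzymes, MAN2A1 was at -1.65 with CC and -1.84 with VST, and FUT8 (-1.61) and ST6GAL1 (-1.60) were past 2-fold with CC. PDIA3 was at -1.38 with VST and -1.13 with Phen, CANX at -1.08 with CC, TMTC3 at -1.06 with CC and DPY19L1 at -1.05 with Phen. Between 2DG+CC and CC, 3 of the 25 were 2-fold higher, OGT (1.92), CALR (1.44) and PDIA3 (1.10), and 7 were lower, against 8.67% and 26.4% of all expressed genes. Between 2DG+VST and VST, CALR (1.09) was higher and 4 were lower, against 3.74% and 16.6%. Between 2DG+Phen and Phen none was higher and 6 were lower, against 5.59% and 18.9%.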

How the data were processed

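RNA from 8 HT1080 cultures, 1 per condition, was labelled from 100 ng of total RNA and hybridized to 1 array each. The deposited values are log2 signals that the authors obtained by RMA (version not given in the sources used here), for 54675 probe sets. Genes were named through the platform annotation, with symbols updated by Entrez ID to RefSeq: 41097 probe sets had 1 gene, 1801 several and 11777 none, and those with several were not used. A gene took the probe set with the highest mean over the 8 arrays, and was expressed at a log2 value of 6 on at least 1 array. Differences were subtractions of log2 values, called at 2-fold. No detection calls were used, and members could lie below that limit on single arrays. With 1 array per condition no test was run, and precision is limited by the number of arrays.

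Values on all arrays are given for members past 2-fold in 2DG, for those past 2-fold with all 3 compounds in 2DG, and for the member of each role group with the largest difference in the 7 comparisons with control or 2DG. Further pathway genes are named where past 2-fold. OSTC, GFPT1 and RPN1 were also described after their values were seen. The members, lists and rules were chosen with earlier results of these data known. Alternatives were centring, quantile normalization, scaling on the 24 poly-A probe sets (also for the oligosaccharyltransferase differences from control, added after seeing the data), expression limits of 5, 7 and none, other probe set rules and folds of 1.5 and 3. The difference computation was checked on simulated data. Python 3.11.15, numpy 2.4.6, pandas 2.3.3 and matplotlib 3.10.9 were used.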

Additional observations from a re-analysis of the deposited data

Results flagged for a closer look

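GFPT1, which catalyses the committed step of the hexosamine pathway, moved in opposite directions with VST depending on the medium. The log2 difference was -1.12 between 2DG+VST and 2DG and 1.27 between VST and control, so the VST difference with 2DG minus that without it was -2.39 log2 units. Both differences passed 2-fold, and the contrast between them was not tested, since each condition has 1 array. GFPT1 had log2 values of 6.78 in 2DG+CC, 6.44 in 2DG+VST, 6.88 in 2DG+Phen and 7.56 in 2DG, against 7.26 in CC, 8.30 in VST, 7.29 in Phen and 7.03 in control. The VST array was the highest of the 8 and the 2DG+VST array the lowest. The 4 expressed probe sets of GFPT1 gave differences of 1.0 to 1.27 between VST and control, and of -2.05 to -0.81 between 2DG+VST and 2DG.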

How the results depend on the processing

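Leaving out a replicate was not possible, and no paired analysis was possible because each condition has 1 array, so that no comparison holds more than 1 pair. A joint fit of 2DG over the 4 pairs with and without it was not run. The members' median in 2DG against control was reversed on poly-A scaling, -0.056. On that scaling the medians were -0.37 in Phen against control, -1.24, -0.98 and -0.90 in 2DG+CC, 2DG+VST and 2DG+Phen against 2DG, and -1.11, -0.86 and -0.64 in 2DG+CC against CC, 2DG+VST against VST and 2DG+Phen against Phen. With each array centred they were -0.16, -0.26 and -0.30 in 2DG+CC, 2DG+VST and 2DG+Phen against 2DG, 0.27 in 2DG+CC against CC and -0.043 in 2DG+Phen against Phen. Both scalings subtract 1 number per array, so the members' distance from all genes is the same in them. Under other settings that distance changed. For 2DG+CC against CC it was 0.25 as reported, 0.049 after quantile normalization and -0.099 with no limit. For 2DG against control it ran from 0.24 to 0.33. The other 77 values of the members' medians moved by under 0.2 log2 units, but medians near 0 changed sign among them. That of 2DG+CC against CC was -0.0048 with no limit and with the dimmest probe sets, -0.035 after quantile normalization and -0.12 without _x_at and _s_at probe sets, and that of 2DG+VST against VST was 0.13 centred and 0.0025 after quantile normalization. Of the values for the 2-fold counts, the counts of genes highest on the 2DG array and the oligosaccharyltransferase median, 195 were close to those reported (counts within 1.5 times) and 52 were not. At a fold of 1.5, 9 members were higher in 2DG than in control (10.8% of all genes), and at a fold of 3 none. The oligosaccharyltransferase median in 2DG against control ran from 0.35 to 0.86.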
